A study of Mus musculus with 12 samples.

Results

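Clec14a, Cd93 and Cd248 encode cell surface C-type lectin-like proteins of group XIV, a family in which thrombomodulin is the remaining member. Mmrn2 encodes multimerin-2, an extracellular matrix protein laid down by endothelial cells that binds CLEC14A, CD93 and CD248. Mcam encodes CD146, an immunoglobulin superfamily adhesion receptor of endothelial and mural cells. These 5 genes were read in lung lymphatic endothelial cells (LECs), out of 52636 gene identifiers counted, and all 5 were among the 21440 genes that passed the filter on low counts. They were taken as a family with its partners and selected on the acute smoke changes of Clec14a and Mcam. The acute values below are therefore a description of what chose the genes and carry no test.

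As background, CLEC14A and CD93 sit on the surface of endothelial cells, where their contact with multimerin-2 supports cell adhesion and sprouting. CD248, also called endosialin, is known from pericytes and fibroblasts rather than from endothelium. CD93 is also made by myeloid cells, and CD146 by pericytes and smooth muscle cells. Multimerin-2 is a relative of multimerin-1, whose gene Mmrn1 is a widely used marker of lymphatic endothelium.

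The LECs were sorted from lungs of Prox1-EGFP mice, in which the lymphatic transcription factor gene Prox1 drives a green reporter, as live cells that were negative for a lineage cocktail and EPCAM and positive for CD31 and GFP. Mice breathed cigarette smoke (CS) or room air (RA) from 6 weeks of age. There were 2 libraries of acute CS (8 weeks of smoke, labelled F and M by sex), 2 of acute RA (F and M), 5 of chronic CS (24 weeks or more; F and M1 to M4) and 3 of chronic RA (F, M1 and M2). In the labels 8 weeks stands as an age and the chronic mice are only called aged, so the times of exposure are those of the study's methods. Each acute library pooled cells of 2 to 5 mice and no chronic library was pooled, so pooling and length of exposure cannot be told apart. Nothing shows that all libraries were prepared independently beyond their labels, so p-values measure the spread between these libraries.

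The shallowest library, chronic CS F, held 18821438 counts and the deepest, acute RA F, held 56998590. Levels are given as CPM, counts scaled to a common library size, and 3 counts, taken as the floor of detection, were worth 0.0507 to 0.158 CPM. Of 8 lymphatic markers listed, 7 were above 100 CPM on average in acute RA and chronic RA. The exception was Ccl21a, with near-identical copies, at 0.31 CPM in acute RA and 0.44 CPM in chronic RA. Libraries differed in markers of cells that the sort was meant to remove. The 2 acute CS libraries stood apart in the sum of 8 leukocyte markers, at 1385 and 2054 CPM against at most 399 CPM in any other library. The sum of 7 epithelial markers was 5381 CPM in acute CS F and 181 CPM in acute CS M. It was 765 to 3832 CPM in the chronic CS libraries and 201 to 878 CPM in the RA libraries. Acute values are therefore given for F and M separately, and the fits were repeated without acute CS F.

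The positions below are those of GRCm38. Clec14a (ENSMUSG00000045930) is a gene of 1 exon on the minus strand of chromosome 12, from 58264720 to 58269290. Cd93 (ENSMUSG00000027435) has 2 exons on the minus strand of chromosome 2, from 148436640 to 148443563. Cd248 (ENSMUSG00000056481) is, like Clec14a, a gene of 1 exon, on the plus strand of chromosome 19 from 5068078 to 5070682. Mmrn2 (ENSMUSG00000041445) lies on the plus strand of chromosome 14 from 34375465 to 34404287, and Mcam (ENSMUSG00000032135) on the plus strand of chromosome 9 from 44134469 to 44142727. Exons of Mcam share 17 bases with those of the antisense gene Gm10687, which held at most 247 counts in a library where Mcam held 12650. No other member overlaps an annotated gene.

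The RefSeq table of promoters held windows for 2 of the 5 genes, Clec14a and Mcam. The stretch of the Clec14a window that lies upstream of the annotated transcript, 218 bases at chr12:58269291-58269508 on the minus strand, is printed because Clec14a is one of the genes on which the family was chosen and had the highest acute CS level of the 5. Capitals mark GGAA, the core letters of ETS factor sites, on either strand.

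Clec14a: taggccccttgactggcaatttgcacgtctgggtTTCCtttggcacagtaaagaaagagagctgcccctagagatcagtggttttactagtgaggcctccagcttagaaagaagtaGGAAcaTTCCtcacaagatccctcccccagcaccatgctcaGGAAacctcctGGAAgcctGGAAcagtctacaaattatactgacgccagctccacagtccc

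GGAA occurred 6 times in these 218 bases, with no match overlapping another. Of 32851 promoter stretches of the same length, 4.92% held at least 6 and 90.9% held at least 1, with a median of 2. CACCC, the core of KLF sites, and TGACTCA, the AP-1 site, were not found there, against 47.5% and 3.97% of the stretches that hold them. For Mcam only 61 bases of the window, chr9:44134408-44134468, lie upstream of the first annotated transcript, and these held none of the 3 motifs. These matches describe letters in a window and not sites in use.

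In room air, levels were compared between genes per kilobase of exon, as FPKM over the 5 RA libraries. Mmrn2, the matrix ligand, stood highest at 176 ± 34.1 FPKM (SD, n = 5), and Clec14a followed at 39.7 ± 7.30 FPKM. Cd93 was at 9.37 ± 2.04 FPKM and Mcam at 6.46 ± 0.432 FPKM, and their ranges overlapped, although Cd93 was the higher of the pair within each of the 5 RA libraries. Cd248 was lowest at 0.362 ± 0.384 FPKM, with only 11 to 143 counts in an RA library. Thus the ligand was far more abundant than any of the receptors, and the pericyte and fibroblast lectin was the scarcest. In both acute CS libraries this order changed, with Clec14a at 304 and 194 FPKM above Mmrn2 at 91.3 and 127 FPKM, whereas Clec14a was below Mmrn2 in each of the other 10 libraries.

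Among the lectins, Clec14a was counted at 168 CPM in acute RA F and 139 CPM in acute RA M, and at 1390 CPM in acute CS F and 888 CPM in acute CS M. Both acute CS libraries were far above both controls. The fitted log2 fold change was 2.89 (SE 0.27), and 2.53 without acute CS F. In bulk RNA, more cells that express a gene and more RNA of it per cell cannot be told apart, here and in all values below. Cd93 was counted at 53.4 and 66.9 CPM in acute RA F and M, and at 514 and 269 CPM in acute CS F and M. Its log2 fold change was 2.70 (SE 0.41), and 2.16 without acute CS F. Cd248 was counted at 0.473 and 2.71 CPM in acute RA F and M, and at 8.56 and 21.1 CPM in acute CS F and M. These 2 controls differed more from each other than any other pair of controls in the family, and the log2 fold change of 3.22 (SE 1.04) became 4.93 without acute RA M. It was 2.43 to 4.93 over the libraries left out.

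Mcam, the adhesion receptor, was counted at 19.5 and 21.8 CPM in acute RA F and M and at 248 and 147 CPM in acute CS F and M. Its log2 fold change of 3.26 (SE 0.31) was close to that of Cd248, and it was 2.83 without acute CS F. Mmrn2, the ligand, lay in the opposite direction. It was counted at 572 and 584 CPM in acute RA F and M, and at 363 and 503 CPM in acute CS F and M, a log2 fold change of -0.42 (SE 0.18). Without acute CS F this was -0.20, and without acute CS M it was -0.67.

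For all 5 genes both acute CS libraries lay on one side of both acute RA libraries, as for 49.9% of the genes tested. At an adjusted p under 0.05 from edgeR's quasi-likelihood test, the higher genes made up 2.75% of those tested. Which of the 5 were among them is not listed, because Clec14a and Mcam were chosen on these values. Without acute RA M 0 of the 5 were, in a fit that called 3 of 23089 genes (0.013%), with log2 fold changes of 2.73 for Clec14a, 2.84 for Cd93 and 3.31 for Mcam. Since this contrast chose the family, nothing is read from these counts. The median log2 fold change was 2.89 over the 5 genes and 0.04 over all genes tested.

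**Figure D1:**
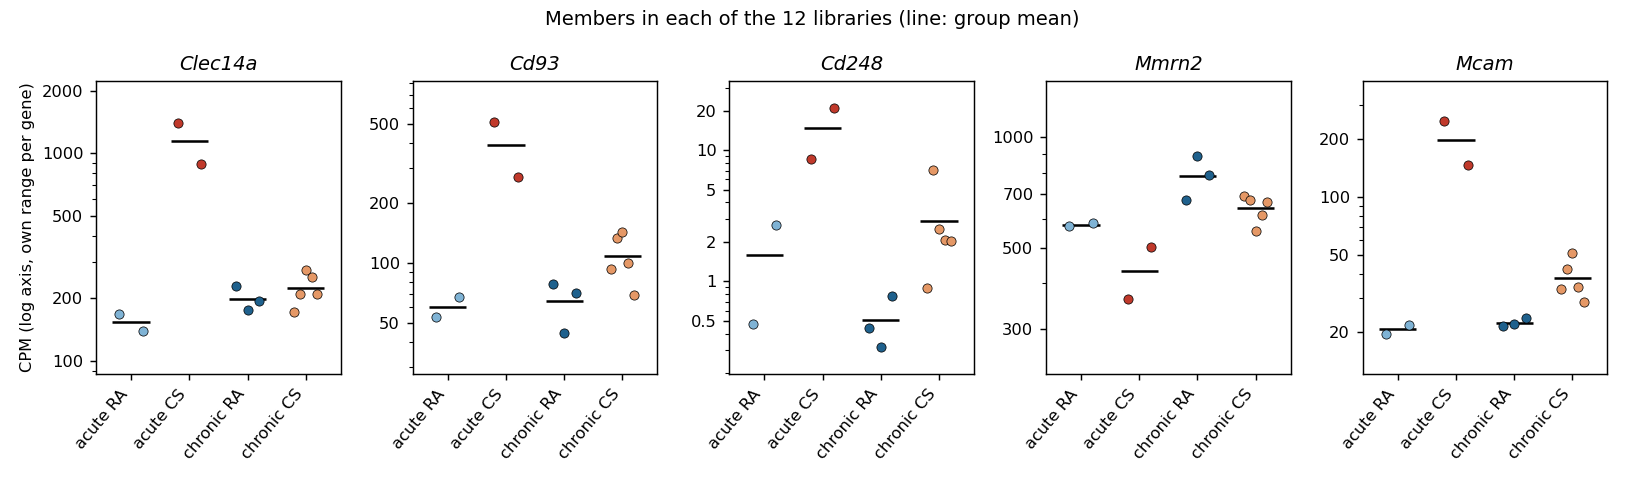
Level of each member in CPM (log axis, with its own range for each gene) in the 12 libraries, by group, with a line at the group mean. Clec14a, Cd93, Cd248 and Mcam are highest in the 2 acute CS libraries, where Mmrn2 is lowest, and for Cd248 and Mcam every chronic CS library lies above the chronic RA libraries.

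Chronic smoke was compared between 5 chronic CS and 3 chronic RA libraries. The family was selected on acute changes, but its members were listed with earlier results of these data known. At an adjusted p under 0.05 from edgeR, 0 of the 5 genes passed, as did 0% of all genes tested. At an unadjusted p under 0.05, 4 of the 5 did (Cd93, Cd248 and Mcam higher, Mmrn2 lower), against 10.9% of all genes. This count was 2 without chronic RA M1 and 2 without chronic CS M2. The groups did not overlap for 2 of the 5, Cd248 and Mcam, against 9.41% of all genes. The two-sided exact permutation test used here, which doubles the smaller tail, cannot give a p below 0.0357 for 5 libraries against 3. With DESeq2 in place of edgeR, 2 of the 5 passed the adjusted limit, again Cd248 and Mcam, as did 2.46% of all genes (527 of 21440).

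Mcam was counted at 33.4 CPM in chronic CS F, and at 42.5, 51.2, 34.1 and 28.7 CPM in chronic CS M1 to M4. In chronic RA it was counted at 21.4 CPM in F, 21.9 CPM in M1 and 23.5 CPM in M2. All 5 smoke libraries were above the narrow range of the controls, and the exact permutation test gave the smallest p it can, 0.0357. The means were 37.97 ± 8.93 CPM (SD, n = 5) and 22.3 ± 1.12 CPM (SD, n = 3), and the fitted log2 fold change was 0.77 (SE 0.21, unadjusted p = 0.00402, edgeR's adjusted p = 0.299). The adjusted p was 0.0240 with DESeq2, and the log2 fold change was 0.94 with chronic CS F, M1 and M2 only and 0.49 with M3 and M4 only, the more deeply sequenced pair.

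Cd248 was counted at 0.893 CPM in chronic CS F, and at 7.04, 2.49, 2.06 and 2.04 CPM in chronic CS M1 to M4. In chronic RA F, M1 and M2 it was counted at 0.439, 0.317 and 0.775 CPM. The groups did not overlap (exact permutation test, two-sided p = 0.0357), but the chronic CS F library was only just above the highest control, and these values rest on 17 to 160 counts in chronic CS and 11 to 26 in chronic RA. The log2 fold change was 2.50 (SE 0.80, unadjusted p = 0.00945, edgeR's adjusted p = 0.333, DESeq2's adjusted p = 0.0278). Without chronic CS M1, the highest library, it was 1.89.

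Cd93 was counted at 93.0 CPM in chronic CS F, and at 133, 143, 100.1 and 68.8 CPM in chronic CS M1 to M4. In chronic RA F, M1 and M2 it was counted at 78.2, 44.2 and 70.3 CPM. Of the smoke libraries 4 lay above all controls and M4 lay among them (exact permutation test, two-sided p = 0.107). The log2 fold change was 0.75 (SE 0.29, unadjusted p = 0.0251, edgeR's adjusted p = 0.401), and it was 0.39 with chronic CS M3 and M4 only.

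Clec14a, one of the genes on which the family was chosen, overlapped between the chronic groups. It was counted at 171 CPM in chronic CS F, at 210.3, 274, 254 and 209.6 CPM in M1 to M4, and at 229, 176 and 195 CPM in chronic RA F, M1 and M2. The exact permutation test gave a two-sided p of 0.464, and the log2 fold change was 0.16 (SE 0.18, edgeR's adjusted p = 0.776). Mmrn2 was counted at 690.1 CPM in chronic CS F, at 675, 554, 615 and 664 CPM in M1 to M4, and at 675, 888 and 786 CPM in chronic RA F, M1 and M2. Of the smoke libraries 3 lay below all controls (exact permutation test, two-sided p = 0.107). The log2 fold change was -0.29 (SE 0.13, unadjusted p = 0.0429, edgeR's adjusted p = 0.447), and the unadjusted p was 0.136 with library size in place of TMM factors. Without chronic RA M1, the highest control, Mmrn2 was at -0.18 (edgeR's unadjusted p = 0.236).

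**Figure D2:**
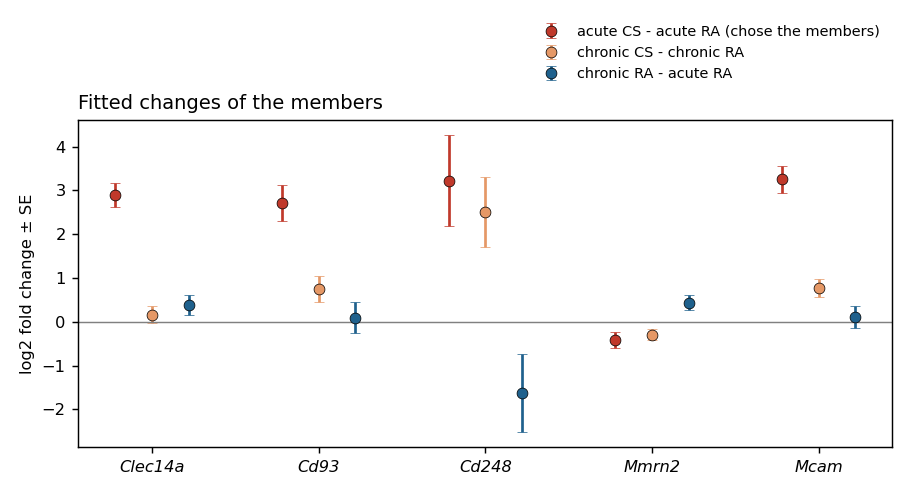
Log2 fold changes of the 5 members with their standard errors for acute smoke, for chronic smoke and for the chronic over the acute controls. The acute changes lie between 2.70 and 3.26 except for Mmrn2 at -0.42, while after chronic smoke Clec14a is at 0.16 and Cd248 at 2.50.

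The controls of both times were compared as 3 chronic RA against 2 acute RA libraries. This comparison shares acute RA with the contrast that chose the family and chronic RA with the chronic comparison. At an adjusted p under 0.05 from edgeR 0 of the 5 genes passed, with 0% of all genes, and with DESeq2 again 0, against 1.18% of all genes. At an unadjusted p under 0.05 there was 1 of the 5, Mmrn2, against 7.01% of all genes. For Clec14a and Mmrn2 every chronic RA library was above both acute RA libraries, a pattern of no overlap found for 34.7% of all genes, and the same exact permutation test cannot go below a two-sided p of 0.2 here. The log2 fold change was 0.38 (SE 0.23) for Clec14a and 0.44 (SE 0.16, unadjusted p = 0.0208, edgeR's adjusted p = 0.648) for Mmrn2. Cd93 and Mcam differed by 0.10 (SE 0.35) and 0.11 (SE 0.26). For Cd248 the value was -1.63 (SE 0.89), and 0.091 without acute RA M, the control with 143 counts.

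The members were also set against the sum of 19 genes listed as general endothelial genes, such as Cdh5, Pecam1, Tie1, Erg and Fli1. Whether each has similar levels in blood and lymphatic endothelium was not tested. In RA libraries Clec14a held 18.1 to 28.0 CPM per 1000 CPM of this sum, in chronic CS 24.1 to 40.8, and in acute CS F and M 153 and 115. Mcam held 2.62 to 2.94 in RA, 3.86 to 7.63 in chronic CS, and 27.3 and 18.9 in acute CS. Per unit of this sum, Mcam therefore separated all chronic CS libraries from all RA libraries, and Clec14a did not. Mmrn2 held 76.2 to 113 in RA, 82.5 to 99.1 in chronic CS, and 39.9 and 64.9 in acute CS, the lowest values of the study.

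Of the 19 general endothelial genes themselves, 4 rose after acute CS at an adjusted p under 0.05 and 1 fell, against 2.75% higher and 0.723% lower among all genes. Those that rose were Esam, an adhesion molecule (log2 fold change 3.16, SE 0.47), the sialomucin gene Cd34 (2.25, SE 0.36), Adgrl4 (1.196, SE 0.265) and Cdh5, the VE-cadherin gene (0.94, SE 0.21). Bcl6b, a transcriptional repressor gene, fell by 1.14 on the log2 scale (SE 0.19). The median was -0.03 over the 19 genes, and without acute CS F only Esam passed, while Cd34 was at 1.999 and Bcl6b at -1.002 there. Without acute RA F, and also without acute RA M, 0 of the 19 passed. Erg and Fli1, ETS factor genes, had acute log2 fold changes of -0.25 (SE 0.26) and 0.05 (SE 0.19). After chronic CS 0 of the 19 passed in edgeR, with a median of -0.19. At an unadjusted p under 0.05 there were 1 higher and 4 lower, against 10.9% of all genes in either direction. Their sum was 6718 to 7419 CPM in chronic CS and 7831 to 8180 CPM in chronic RA, without overlap, and Esam was at 1.06 (SE 0.33, edgeR's adjusted p = 0.330).

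Thbd, the thrombomodulin gene and the closest relative of the lectins outside the 5, was counted at 549 and 548 CPM in acute RA F and M and at 1808 and 1173 CPM in acute CS F and M. It rose with a log2 fold change of 1.44 (SE 0.25, edgeR's adjusted p = 0.0117). The call was lost without acute CS F (log2 fold change 1.10), acute RA F or acute RA M, fits that leave a lone library in a group. After chronic CS its log2 fold change was 0.53 (SE 0.18, edgeR's adjusted p = 0.367). Relatives of Mmrn2 lay on both sides of 0. Mmrn1 was at -1.08 (SE 0.28, edgeR's adjusted p = 0.0617) after acute CS and Emilin1 at -0.85 (SE 0.25, adjusted p = 0.108), and after chronic CS these were at -0.30 (SE 0.20) and -0.65 (SE 0.18). Emilin2 was counted at 2.71 ± 1.81 CPM in acute RA and 33.1 ± 34.2 CPM in acute CS (SD over 2 libraries each), with a log2 fold change of 3.61 (SE 1.28), and 1.72 without acute CS F. Its chronic log2 fold change was 1.91 (SE 0.93). Emilin3, at 1.29 CPM in acute RA, was at -2.40 (SE 1.55) after acute CS. It was counted at 5.44 ± 3.31 CPM in chronic RA (SD, n = 3) and 1.31 ± 1.47 CPM in chronic CS (SD, n = 5). Neither Emilin2 nor Emilin3 passed in either comparison. Of these 5 relatives, Thbd alone passed after acute CS. After chronic CS 0 passed in edgeR (1 higher and 1 lower at an unadjusted p under 0.05), and the median log2 fold changes were -0.85 and -0.30.

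Among 14 genes for other known ligands and partners of these receptors, 4 rose and 1 fell after acute CS, against 2.75% higher and 0.723% lower among all genes. The median over the 14 was a log2 fold change of 1.16. Igfbp7, a secreted ligand of CD93, was at 219 ± 88.2 CPM in acute RA and rose to 602 ± 162 CPM in acute CS (SD over 2 libraries each). Its log2 fold change was 1.46 (SE 0.33, edgeR's adjusted p = 0.0363). Lama4, the laminin chain that CD146 binds, was at 925 ± 14.9 CPM in acute RA and 476 ± 55.5 CPM in acute CS (SD over 2 libraries each), and fell by 0.96 on the log2 scale (SE 0.16, edgeR's adjusted p = 0.00978). The galectin genes Lgals1 and Lgals3 rose with log2 fold changes of 2.69 (SE 0.54) and 4.42 (SE 0.88), and Lgals3bp with 1.64 (SE 0.35). Without acute CS F only Lgals1 passed, with a median of 0.49 for the 14, and Lama4 was at -0.84 (adjusted p = 0.0891). Without acute RA F, and also without acute RA M, 0 of the 14 passed. Kdr, whose protein signals together with CD146, was at -0.39 (SE 0.26) and did not pass. After chronic CS 0 of the 14 passed in edgeR (1, higher, at an unadjusted p under 0.05), the median was -0.14, and Igfbp7 and Lama4 were at -0.21 (SE 0.24) and -0.20 (SE 0.11).

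**Figure D3:**
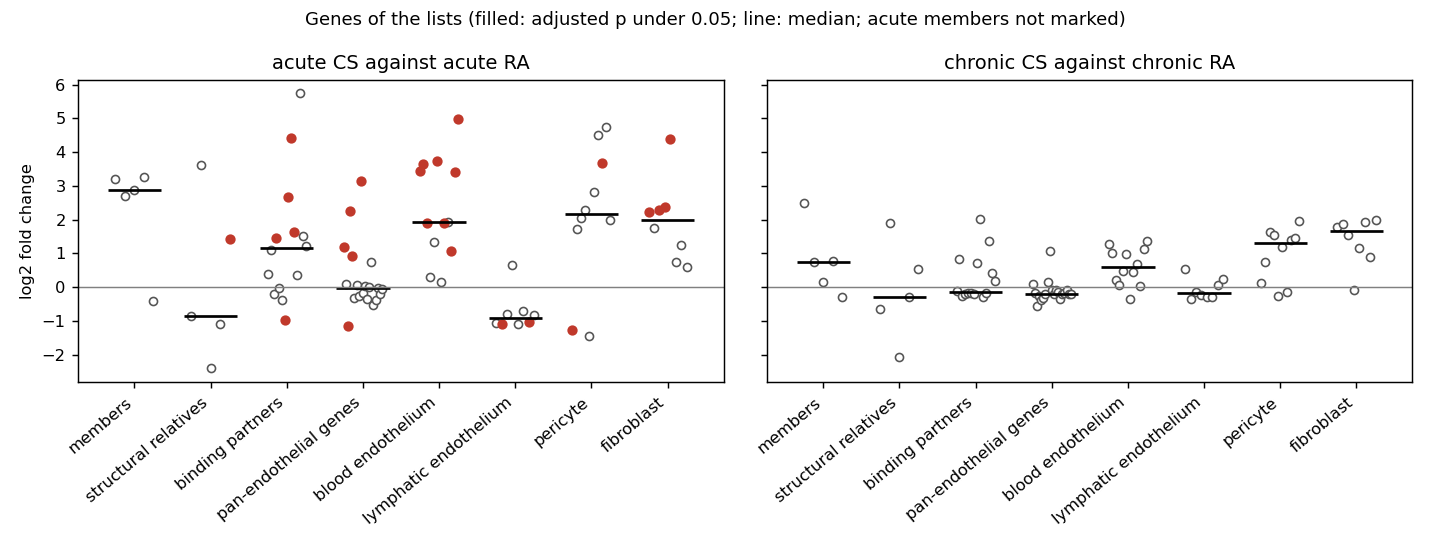
Log2 fold changes of the genes in each list after acute CS (left) and chronic CS (right), with a line at the list median and filled points for an adjusted p under 0.05 (not marked for the members after acute CS, which chose them). After acute CS the general endothelial median is at -0.03 and the blood endothelial median at 1.93, and no point is filled after chronic CS.

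Markers of other cells also differed in the acute CS libraries. After acute CS all 12 blood endothelial markers had positive log2 fold changes with a median of 1.93, and 8 passed, among them Vwf (4.98, SE 0.54) and Aplnr (3.43, SE 0.57). Their sum was 8140 and 9858 CPM in acute CS against 3537 and 4321 CPM in acute RA, and without acute CS F the median was 1.27 with 2 passing. None was at 0 in RA, and Plvap, at 2590 CPM in acute RA, was the largest part of the sum there. All 8 leukocyte markers were higher (7 passed, fewer without acute CS F), with a median log2 fold change of 3.78 (3.39 without acute CS F). Their sums were 1385 to 2054 CPM in acute CS and 238 to 251 CPM in acute RA. All 8 myeloid markers were higher as well (1 passed; 7 were higher and 0 passed without acute CS F), with sums of 3324 to 6580 against 350.0 to 452 CPM. The 8 fibroblast markers summed to 529 to 910 CPM in acute CS and 170.0 to 209 CPM in acute RA, and the 5 smooth muscle markers to 180.0 to 222 and 18.0 to 41.2 CPM. Of 10 pericyte markers 8 were higher, with a median log2 fold change of 2.16 (1.29 without acute CS F). Pdgfrb rose (3.69, SE 0.59), from 4.61 ± 0.389 to 59.5 ± 25.8 CPM (SD over 2 libraries each), and Abcc9 fell by 1.27 on the log2 scale (SE 0.26). Without acute CS F, which leaves a lone acute CS library, these calls were lost, with log2 fold changes of 3.16 and -1.46. The pericyte sums, 191 to 237 CPM in acute CS and 212 to 273 CPM in acute RA, had Kcnj8 as their largest part in acute RA, at 202 CPM there and 74.5 CPM in acute CS. The 7 lymphoid markers summed to 178 to 194 CPM in acute CS and 17.5 to 18.1 CPM in acute RA, and the 5 platelet markers to 17.7 to 45.9 and 11.9 to 16.2 CPM. Lymphatic markers, in contrast, fell for 2 of 8 genes, Prox1 and Flt4, with sums of 6446 to 10216 CPM in acute CS and 14860 to 16833 CPM in acute RA. Without acute CS F 0 of the 8 passed and their median moved from -0.92 to -0.53, without acute CS M 6 of the 8 passed as lower with a median of -1.26, and Lyve1 lay on the other side, at 489 CPM in acute RA and 777 CPM in acute CS. Without acute RA M, where 3 genes in all passed, 0 genes of any list did, with medians of 1.998 for blood endothelium and 3.59 for leukocytes against 1.93 and 3.78 with all libraries. Without acute RA F, where 79 genes in all passed, 1 marker each of blood endothelium, smooth muscle, leukocytes and lymphoid cells did. The part of these cells in the acute values of the 5 genes was not tested.

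After chronic CS 0 genes of these lists passed at the adjusted limit in edgeR, as 0% of all genes. At an unadjusted p under 0.05, which 10.9% of all genes met, the higher markers were 6 of 8 for fibroblasts, 4 of 5 for smooth muscle, 4 of 7 for epithelium, 3 of 10 for pericytes, 5 of 12 for blood endothelium, 3 of 8 each for leukocytes and myeloid cells and 2 of 7 for lymphoid cells. The lower ones were 1 each of blood endothelium, lymphatic endothelium and platelets. Fibroblast markers summed to 189 to 345 CPM in chronic CS and 119 to 160 CPM in chronic RA, and smooth muscle markers to 50.1 to 127 and 16.0 to 25.9 CPM, with no overlap in either case. Epithelial sums were 765 to 3832 and 201 to 379 CPM, again without overlap. Blood endothelial markers were higher for 11 of 12 genes (median log2 fold change 0.59), among them Vwf at 150.4 ± 74.7 CPM in chronic CS (SD, n = 5) and 57.7 ± 5.78 CPM in chronic RA (SD, n = 3). Pericyte markers were higher for 8 of 10 (median 1.30). The largest part of each sum was a single gene with lower values, Plvap at 2135 and 2743 CPM and Kcnj8 at 219.8 and 260.5 CPM in chronic CS and chronic RA. Sums of the other lists, and of these 2, overlapped, at 3639 to 4519 and 3963 to 4180 CPM for blood endothelium, 208 to 413 and 272 to 338 CPM for pericytes, 149.5 to 399 and 154 to 234 CPM for leukocytes, and 15025 to 21864 and 20237 to 23073 CPM for lymphatic endothelium. Myeloid sums were 306 to 1732 and 127 to 452 CPM, lymphoid sums 27.2 to 48.8 and 37.3 to 59.7 CPM, and platelet sums 15.4 to 40.1 and 29.0 to 89.4 CPM. Chronic CS M1 had the highest fibroblast sum of its group and the highest Cd248. In chronic RA the highest Cd248, only 26 counts, was in M2, whose fibroblast sum of 119 CPM was close to the 121 CPM of M1. The part of blood endothelial, mural, fibroblast and myeloid cells in the chronic values of the 5 genes was not tested.

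**Figure D4:**
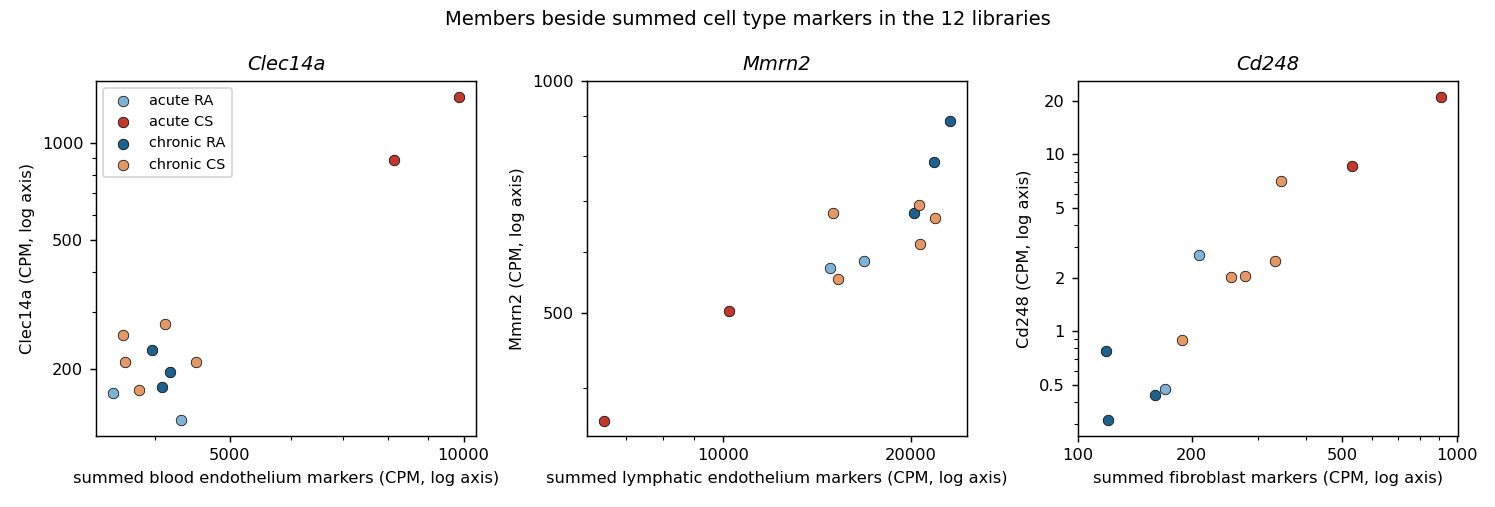
Level of Clec14a, Mmrn2 and Cd248 (CPM, log axis) against the summed CPM of blood endothelial, lymphatic endothelial and fibroblast markers (log axis) in each of the 12 libraries. The acute CS libraries have the highest Clec14a and blood endothelial sums, the lowest Mmrn2 and lymphatic sums and the highest Cd248 and fibroblast sums.

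The profiles of single genes were compared over the 12 libraries as Pearson correlations of log2 CPM among the other genes with at least 10 CPM on average (9845 for Cd248, 9844 for each of the rest). These are descriptions over libraries that share the acute CS pair, and values without that pair (10 libraries) are given beside them. The genes most like Clec14a were the leukocyte gene Coro1a (r = 0.988, 0.959 without acute CS), Hpgd (0.981, 0.854) and Acvrl1, an endothelial BMP receptor gene (0.977, 0.845). The chemokine gene Cx3cl1 was among the nearest genes to both Cd93 (0.982, 0.924) and Mcam (0.987, 0.976). Cd93 was also close to Bmp6 (0.976, 0.897) and to Mcam itself (0.973, 0.905), and Mcam to Anxa3 (0.989, 0.934) and Bcam (0.981, 0.894). Cd248 was nearest to the type I collagen genes Col1a2 (0.942, 0.907) and Col1a1 (0.940, 0.878), followed by Plk3 (0.911, 0.910). Mmrn2 had other neighbours, Rspo3 (0.952, 0.862), Ltbp4 (0.948, 0.846) and Degs1 (0.941, 0.903).

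Within the family, Clec14a and Mcam had r = 0.959 over the 12 libraries and 0.637 without acute CS, while Cd93 and Mcam had 0.973 and 0.905. Mmrn2 was negatively related to each of the other 4 genes, from -0.83 with Cd93 to -0.67 with Cd248, and from -0.45 with Cd248 to -0.18 with Clec14a without acute CS. The close relation of Cd93 and Mcam was thus also seen among the libraries outside acute CS, and the one with Clec14a was looser there.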

How the data were processed

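RNA of sorted LECs was sequenced in 12 libraries made with a SMART-Seq v4 kit, which does not mark strand. The deposited files hold raw read counts for Ensembl genes. Before deposit the authors checked reads with FastQC (0.11.9), trimmed adapters with Skewer, ran a further quality check with Minion, and aligned and counted them against GRCm38 in STAR's GeneCounts mode. The annotation release is not given in the sources used here. Gene names, positions and exon lengths were taken from GENCODE M21, which held 52489 of 52636 identifiers.

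The count model was edgeR 4.0.16 under R 4.3.3, with DESeq2 1.42.0 as an alternative. After filterByExpr 21440 genes were fitted in all 12 libraries with 1 term per group. Libraries were scaled by TMM, changes were tested by quasi-likelihood, and p-values were adjusted by Benjamini and Hochberg over all genes, with a limit of 0.05. Standard errors are the log2 fold change divided by the root of F. A prior count of 2 was used for log2 CPM of single libraries. FPKM is CPM per kilobase of the union of exons. Single genes were compared by two-sided exact permutation tests. The fit was tested on simulated data. The genes named are the members, the genes of the hand-written lists and the 3 genes most like each member. The members and lists were chosen with earlier results of these data known. Alternatives were DESeq2, library size for TMM, no filter, a fit on the compared groups alone, a sex term, replicate blocks, robust estimation, subsets of chronic CS and leaving out each library.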

Additional observations from a re-analysis of the deposited data

How the results depend on the processing

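Of 195 log2 fold changes of the 5 genes recomputed under other settings, 181 kept their direction and their side of the limit (or, after acute CS, stayed within a standard error). For acute CS this did not ask whether a call was kept. In the chronic and control comparisons the main fit called 0 of all genes, so keeping the side of the limit says little about stability there. After acute CS no member is named as called, since this contrast chose the family. Over 11 other settings the log2 fold changes were 2.53 to 3.18 for Clec14a, 2.16 to 3.10 for Cd93 and 2.83 to 3.59 for Mcam. Those of Cd248 were 2.43 to 4.93 and those of Mmrn2 -0.67 to -0.20. Settings without an acute library leave a lone library in its group, which is assumed to vary like the other groups. After chronic CS the number of members called was 0, with 2 under DESeq2, which called 527 of 21440 genes (2.46%), and 0 over every library left out. For the room air controls, Cd248 ranged from -2.40 to 0.091 (without acute RA M) and Cd93 from -0.078 to 0.30 over the libraries left out, and Cd93 was at -0.0082 with library size in place of TMM. The cause was not tested. That scaling moved the median of all genes from 0 to -0.10 in the controls. With sex and number in the labels as a replicate block, the number of members called after chronic CS was again 0, chronic M3 and M4 having no partner. The acute log2 fold changes were then 2.86 for Clec14a, 2.64 for Cd93, 3.55 for Cd248, -0.44 for Mmrn2 and 3.21 for Mcam. Chronic CS and RA libraries of the same label (F, M1 and M2) had correlations of -0.04 to 0.03 in their deviations from the group mean. These values show no pairing but cannot exclude one. The room air groups share only F and had no such fit. Genes called after acute CS numbered 745, with 1928 under DESeq2, 139 with the acute groups alone and 73 with the block, and with 3 without acute RA M, 79 without acute RA F, 175 without acute CS F and 858 without acute CS M. At these depths Cd248, with 11 to 28 counts in 4 of 5 RA libraries, is the least precise of the 5. Fits on gene lists without acute CS F and correlations without acute CS were chosen after seeing the data.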
